A study of Mus musculus with 2 samples.

Results

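The 81 genes described here are the protein-coding mouse genes that encode the RNA polymerases, the Mediator complex and the Gtf2 and Gtf3 transcription factors, taken by symbol from the GENCODE M21 annotation of the mm10 genome out of 21938 protein-coding genes. Chosen were Polr1, Polr2 or Polr3 followed by a letter, Med followed by digits and an optional letter, and Gtf2 or Gtf3 followed by a letter. The genes comprise 5 Polr1, 13 Polr2, 10 Polr3, 30 Med, 16 Gtf2 and 7 Gtf3 genes. A gene was called bound in a replicate where at least 1 bp of a SRCAP peak fell between 1000 bp upstream and 500 bp downstream of any of its annotated transcription start sites (TSSs).

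SRCAP is the ATPase of a chromatin remodeler that exchanges H2A for the histone variant H2A.Z in nucleosomes, which flank the TSSs of active genes. Its genomic positions were mapped by CUT&Tag in SYAT cells, mouse embryonic stem cells (mESCs) of the CGR8 line that derive from 1 clone. The clone carries YPet-AID, a fluorescent protein with an auxin-inducible degron, knocked into both Srcap alleles with a hygromycin resistance cassette, and expresses the plant receptor OsTir1 from a lentiviral EF1a-driven construct. The anti-GFP antibody recognises YPet and directs the Tn5 transposase to the tagged protein. Both samples, SYAT NT GFP 1 and 2 (replicates 1 and 2), were kept in the control condition with auxinole, an inhibitor that prevents basal degradation of the tagged protein, after a change to Serum LIF medium, and 200000 cells were used for each. The study describes the replicates of its experiments in general as independent cultures. With 1 group, no comparison between conditions and no test was possible, and neither auxin-treated or untagged cells nor a library made without the antibody were analysed here. A peak list measures no expression, so the mESC label could not be checked against marker genes.

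RNA polymerase I transcribes the large ribosomal RNA precursor, RNA polymerase II messenger RNAs, and RNA polymerase III transfer RNAs and other short RNAs, and a few small subunits are common to all of them. At Pol II promoters the general factors TFIIA to TFIIH open the DNA and place the polymerase, while Mediator relays the action of DNA-bound activators to it through its head, middle and tail modules, with a detachable kinase module. At Pol III genes TFIIIA and TFIIIC recognise internal promoter elements. The genes of all these proteins are themselves transcribed by Pol II, and most are used in nearly every cell, apart from a few tissue-restricted paralogs.

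Promoter sequences are shown for Polr3g, Med11, Med19 and Med21, genes whose RefSeq promoters lay at least in part under the peaks of both replicates, and for Polr2a, which had no promoter peak. Each runs 5′ to 3′ from 150 bases before to 30 bases after the RefSeq start in GRCm38.p6, the assembly that mm10 represents, and capitals mark the bases inside the peaks of both replicates. Polr3g is on the minus strand at chr13:81710984-81711163, Med11 on the plus strand at chr11:70451768-70451947, Med19 on the plus strand at chr2:84678252-84678431, Med21 on the plus strand at chr6:146642429-146642608 and Polr2a on the minus strand at chr11:69758604-69758783.
Polr3g: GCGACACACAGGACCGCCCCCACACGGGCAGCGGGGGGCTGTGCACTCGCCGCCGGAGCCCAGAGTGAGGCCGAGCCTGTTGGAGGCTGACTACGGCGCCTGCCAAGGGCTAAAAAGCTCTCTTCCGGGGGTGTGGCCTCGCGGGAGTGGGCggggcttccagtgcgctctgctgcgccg
Med11: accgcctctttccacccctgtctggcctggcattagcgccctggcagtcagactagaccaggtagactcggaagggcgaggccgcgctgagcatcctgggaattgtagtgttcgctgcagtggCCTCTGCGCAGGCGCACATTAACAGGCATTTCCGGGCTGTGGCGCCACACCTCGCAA
Med19: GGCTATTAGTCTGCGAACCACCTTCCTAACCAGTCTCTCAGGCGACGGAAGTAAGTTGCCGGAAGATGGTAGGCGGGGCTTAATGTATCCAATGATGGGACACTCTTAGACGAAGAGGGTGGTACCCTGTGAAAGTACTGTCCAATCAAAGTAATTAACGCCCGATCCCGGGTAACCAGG
Med21: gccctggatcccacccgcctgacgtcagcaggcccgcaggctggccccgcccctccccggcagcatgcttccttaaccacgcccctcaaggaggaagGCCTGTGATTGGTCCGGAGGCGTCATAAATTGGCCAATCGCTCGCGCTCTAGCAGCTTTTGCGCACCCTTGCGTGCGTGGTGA
Polr2a: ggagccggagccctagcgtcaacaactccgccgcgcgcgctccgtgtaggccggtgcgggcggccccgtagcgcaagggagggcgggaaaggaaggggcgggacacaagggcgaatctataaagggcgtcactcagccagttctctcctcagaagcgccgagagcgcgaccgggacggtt
In Med19 all 180 bases lay inside both peaks, against 152 in Polr3g, 83 in Med21 and 57 in Med11. The Med11 peaks began just before the start site and continued into the gene, whereas those of Polr3g lay almost wholly upstream.

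The replicates differed in how many peaks were called, 6158 in replicate 1 and 12958 in replicate 2, and the calls at these genes differed in the same direction. In replicate 1, 16 of the 81 promoters were bound (19.8%, 95% Wilson interval 12.5 to 29.7%), against 15.7% of all protein-coding genes. In replicate 2, 44 were bound (54.3%, interval 43.5 to 64.7%), against 30.4% of all protein-coding genes. The mean over replicates was 37% ± 24.4 (SD, n = 2), so the share of bound genes was not known more closely than the interval between the 2 lists. The intervals cover counting error only.

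Both replicates had a promoter peak at 13 genes (16%, interval 9.63 to 25.5%), against 12.0% of all protein-coding genes. Either replicate had one at 47 genes (58%, against 34% of all protein-coding and 54.9% of CpG-rich genes, which are defined below), and 34 genes had none. Of the genes bound in replicate 1, 81.2% were also bound in replicate 2, and of those bound in replicate 2, 29.5% were bound in replicate 1. The same shares over all protein-coding genes were 76.7% and 39.7%.

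Most of these promoters are CpG-rich, and the shares were read against promoters of the same kind. A gene was counted as CpG-rich where the window of any TSS had a GC content of at least 50% and a ratio of observed to expected CpG of at least 0.6, which held for 53 of the 81 genes (65.4%) and for 41.6% of all protein-coding genes. Of the 9120 CpG-rich protein-coding genes, 26.2% were bound in replicate 1, 49.7% in replicate 2 and 21.1% in both. Of the 53 CpG-rich genes described here, 13 (24.5%), 30 (56.6%) and 10 (18.9%) were bound. The ratio of the percent bound to that of all protein-coding genes was 1.26 in replicate 1, 1.79 in replicate 2 and 1.33 for both, and within CpG-rich promoters it was 0.934, 1.14 and 0.896. The Wilson intervals of the 53 genes, 14.9 to 37.6%, 43.3 to 69% and 10.6 to 31.4%, held the shares of all CpG-rich genes.

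The 28 genes without a CpG-rich promoter stood differently. In replicate 1, 3 of them (10.7%, interval 3.71 to 27.2%) were bound, against 8.20% of the 12818 protein-coding genes of that kind. In replicate 2, 14 (50%, interval 32.6 to 67.4%) were bound, against 16.6%, and in both replicates 3 (10.7%, interval 3.71 to 27.2%), against 5.63%. The share in replicate 2 was thus above that of the 12818 genes, while the intervals for replicate 1 and for both held their shares. The sets were not matched in CpG content beyond the cutoff. Of the 28 genes, Med9 lay close to it (GC 51.5%, CpG ratio 0.598) and Med10 far from it (44.1%, 0.155). Whether CpG content accounts for the difference in replicate 2 was not tested. The 3 bound in both were Med11, Med23 and Med30.

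The ratios to all protein-coding genes depended on the setting. Where a TSS had to lie inside the peak they were 0.888 in replicate 1 (7 genes), 1.98 in replicate 2 and 1.06 for both. Where the peak score had to be at least 50 they were 0.88 (3 genes), 1.61 and 1.24. The replicate 1 ratio thus fell below 1 in both settings, on few genes, and the replicate 2 ratio did not.

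Genes of other basic machineries had similar shares. Of 55 translation initiation factor genes (Eif and a digit), 12 (21.8%) were bound in replicate 1, 26 (47.3%) in replicate 2 and 9 (16.4%) in both. Of 50 proteasome genes, 12 (24%), 21 (42%) and 9 (18%) were bound. The Wilson intervals of the 81 genes held all of these percentages except the 42% of the proteasome genes in replicate 2.

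By family, the mean percent bound over the 2 replicates was 40% ± 28.3 for Polr1, 30.8% ± 21.8 for Polr2, 30% ± 14.1 for Polr3, 40% ± 18.9 for Med, 43.8% ± 35.4 for Gtf2 and 28.6% ± 40.4 for Gtf3 (SD, n = 2), against 23% ± 10.4 for all protein-coding genes and 38% ± 16.6 for CpG-rich genes. Within each replicate the Wilson intervals of all 6 families overlapped. Gtf3 had 4 of 7 genes bound in replicate 2 and 0 in replicate 1, and every other family had at least 1 gene bound in both.

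**Figure D1:**
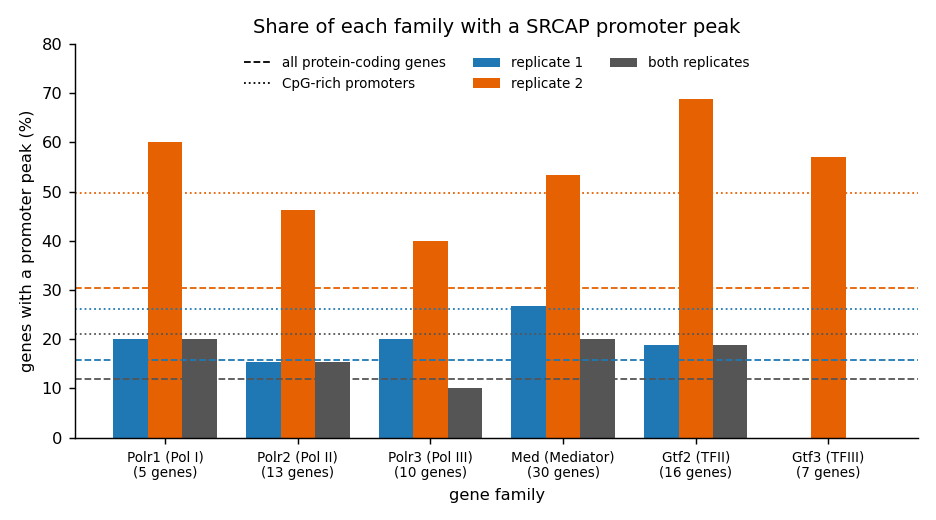
Percent of genes with a SRCAP promoter peak (vertical axis) in each of the 6 gene families (horizontal axis), with bars for replicate 1, replicate 2 and both replicates. Dashed lines give the percent of all protein-coding genes and dotted lines that of CpG-rich genes in the colour of the same bar. Replicate 2 is the highest bar in every family, and Gtf3 has no bar for replicate 1.

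Mediator gave 6 of the 13 genes bound in both replicates: Med11 in the head, Med19, Med21 and Med31 in the middle, and Med23 and Med30 in the tail. In the head module, which contacts Pol II, 1 of 7 genes was bound in replicate 1 and 4 in replicate 2. Of the 9 middle genes 3 and 6 were bound, and of the 9 tail genes, whose products meet activators, 2 and 4. With so few genes a module, the Wilson intervals of the head, middle and tail all held the shares of all protein-coding genes in replicate 1 (15.7%) and of CpG-rich genes in both lists (26.2% and 49.7%), so these counts do not set a module apart from CpG-rich genes. The share of all protein-coding genes in replicate 2 (30.4%) lay in the intervals of the head and tail and below that of the middle (35.4 to 87.9%). The 4 kinase module genes Med12, Med12l, Med13 and Med13l had 1 and 2 bound and none in both. Med14, the scaffold that joins the modules, was bound in replicate 1 only.

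Med11 had the strongest pair of peaks among the Mediator genes. Its replicate 1 peak at chr11:70451891-70452378 had a score of 54 and its replicate 2 peak at chr11:70451856-70452356 a score of 107, where the score rises with the confidence of the peak call. The peaks overlapped by 466 bp, and their midpoints lay 202.5 and 174 bp downstream of the TSS. Distances are from the TSS nearest to each peak's midpoint, with negative values upstream.

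Med19, a middle subunit, had a peak at chr2:84678174-84678511 with a score of 36 in replicate 1 and at chr2:84677803-84678597 with a score of 70 in replicate 2, where the second contained the first whole. Med23, a tail subunit, had peaks at chr10:24869853-24870249 (score 45) and chr10:24869879-24870260 (score 53). These were centred almost on the TSS, at 4 and 22.5 bp, and differed little in score. Med21, a middle subunit, had scores of 23 at chr6:146642403-146642824 and 87 at chr6:146642526-146642831. Med31, also of the middle, had scores of 29 at chr11:72215088-72215421 and 42 at chr11:72215088-72215740, with the same left border in both replicates. Med30 had scores of 37 and 40. Of these 6 genes, Med21 and Med11 differed most between replicates in score and Med30 and Med23 least.

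Med1, the middle subunit that binds nuclear receptors, was bound in replicate 2 only, at chr11:98193043-98193791 with a score of 43. Med12, which activates the kinase of the kinase module, was bound in replicate 2 only, at chrX:101273625-101274044 with a score of 29. The highest score among the genes bound in replicate 2 only was that of Med16, a tail subunit, at 112. Med17, a central head subunit, had 68, Med7 48, Med6 31, Med26 29, Med12l 25, Med28 20 and Med20 14. The Med16 score was above those of all Mediator genes bound in both replicates, so a high score in replicate 2 did not always go with a peak in replicate 1.

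Of the polymerase genes, Polr3g, Polr1d, Polr2b and Polr2h were bound in both replicates. Polr3g, a Pol III subunit that has a close paralog in Polr3gl, ranked first of all 81 genes when each was ranked by the poorer of its positions in the 2 lists. Its peak at chr13:81711012-81711651 had a score of 74 in replicate 1, within the top 7.94% of that list, and the peak at chr13:81710949-81711925 a score of 90 in replicate 2, within the top 7.57%. The second contained the first, and both also overlapped the promoter window of Mblac2, which starts 328 bp away on the opposite strand. Polr3gl had no promoter peak in either replicate.

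Polr1d, a subunit common to Pol I and Pol III, had a score of 88 at chr5:147076409-147076945 in replicate 1 and of 75 at chr5:147076362-147076955 in replicate 2. It was the only gene bound in both replicates with the lower score in replicate 2. Polr1c, its partner in both enzymes, had no peak. Polr1a and Polr1b, the large catalytic subunits of Pol I, were bound in replicate 2 only, with scores of 38 and 37, and Polr1e was not bound.

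Polr2b, the second largest Pol II subunit, was called in both replicates from different peaks. The replicate 1 peak at chr5:77309646-77309903 (score 31) and the replicate 2 peak at chr5:77310054-77310674 (score 41) were 150 bp apart, and the first lay on the side of Noa1, which starts on the opposite strand. Polr2h, a small subunit of all 3 polymerases, had peaks at chr16:20717252-20717508 (score 20) and chr16:20717500-20717828 (score 33) that overlapped by 9 bp. At both genes the replicate 1 peak was the one farther upstream, on the side of the neighbouring gene.

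Polr2a, which encodes the largest, catalytic Pol II subunit, had no promoter peak, and the nearest peak was 79539 bp away in replicate 1 and 64739 bp in replicate 2. Of the 5 genes for subunits common to all 3 polymerases, Polr2h alone was bound, and Polr2e, Polr2f, Polr2k and Polr2l were not. Of the 8 genes for subunits particular to Pol II, 5 were bound in replicate 2 (Polr2b, Polr2c, Polr2d, Polr2i and Polr2j, with scores of 29 to 55), 1 of them also in replicate 1. In replicate 2 this was 62.5% (interval 30.6 to 86.3%), beside 20% (3.62 to 62.4%) of the 5 common genes. Both intervals held the 49.7% of CpG-rich genes, and the first lay just above the 30.4% of all protein-coding genes. In replicate 1 the shares were 12.5% and 20%, against 15.7% of all protein-coding genes. Some small subunit genes were thus bound and others not.

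Of the 10 Pol III genes, Polr3b, which encodes the second largest subunit, Polr3d and Polr3e were bound in replicate 2 only, with scores of 52, 104 and 31. Polr3f was bound in replicate 1 only. Polr3a, the largest subunit, Polr3c, Polr3gl and Polr3k had no peak. For Pol II and Pol III the gene of the largest subunit was thus unbound and that of the second largest bound in at least 1 replicate. Pol I differed, with both Polr1a and Polr1b bound in replicate 2. A peak in either replicate was found at 58% of the 81 genes, so few pairs do not make a rule.

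Of the Gtf2 genes, the TFIIH genes Gtf2h1 and Gtf2h5 and the TFII-I family gene Gtf2ird2 were bound in both replicates. The TFII-I family (Gtf2i, Gtf2ird1 and Gtf2ird2) shares the symbol but encodes DNA-binding regulators rather than general initiation factors. Gtf2h5, the smallest TFIIH subunit, had a score of 26 at chr17:6079499-6079868 in replicate 1 and of 172 at chr17:6079376-6079803 in replicate 2. The latter was the highest score of any of the 81 genes in either replicate and within the top 1.05% of its list, while the former was within the top 61.7% of its own. Gtf2h1 had scores of 31 at chr7:46795476-46795838 and 57 at chr7:46795680-46796068, and Gtf2ird2 scores of 22 and 32.

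All 3 TFIIA genes were bound in replicate 2 only, with scores of 30 for Gtf2a1, 33 for Gtf2a1l, the germ-cell paralog, and 61 for Gtf2a2. Gtf2b, the single TFIIB gene, had no peak, and the nearest was 76567 bp away in replicate 1 and 76443 bp in replicate 2. Of the remaining Gtf2 genes, Gtf2e1 (score 96), Gtf2i (85), Gtf2h4 (40), Gtf2f1 (30) and Gtf2ird1 (14) were bound in replicate 2 only, and Gtf2e2, Gtf2f2, Gtf2h2 and Gtf2h3 in neither. TFIIE and TFIIF, each of 2 subunits, thus had a peak at the gene of 1 subunit.

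Of the Pol III factors, Gtf3a, which encodes the 5S rRNA gene factor TFIIIA, was bound in replicate 2 with a score of 43. Of the 6 TFIIIC genes, Gtf3c1, Gtf3c2 and Gtf3c3 were bound in replicate 2 with scores of 31, 30 and 84, and Gtf3c4, Gtf3c5 and Gtf3c6 had no peak. None of these genes was bound in replicate 1.

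**Figure D2:**
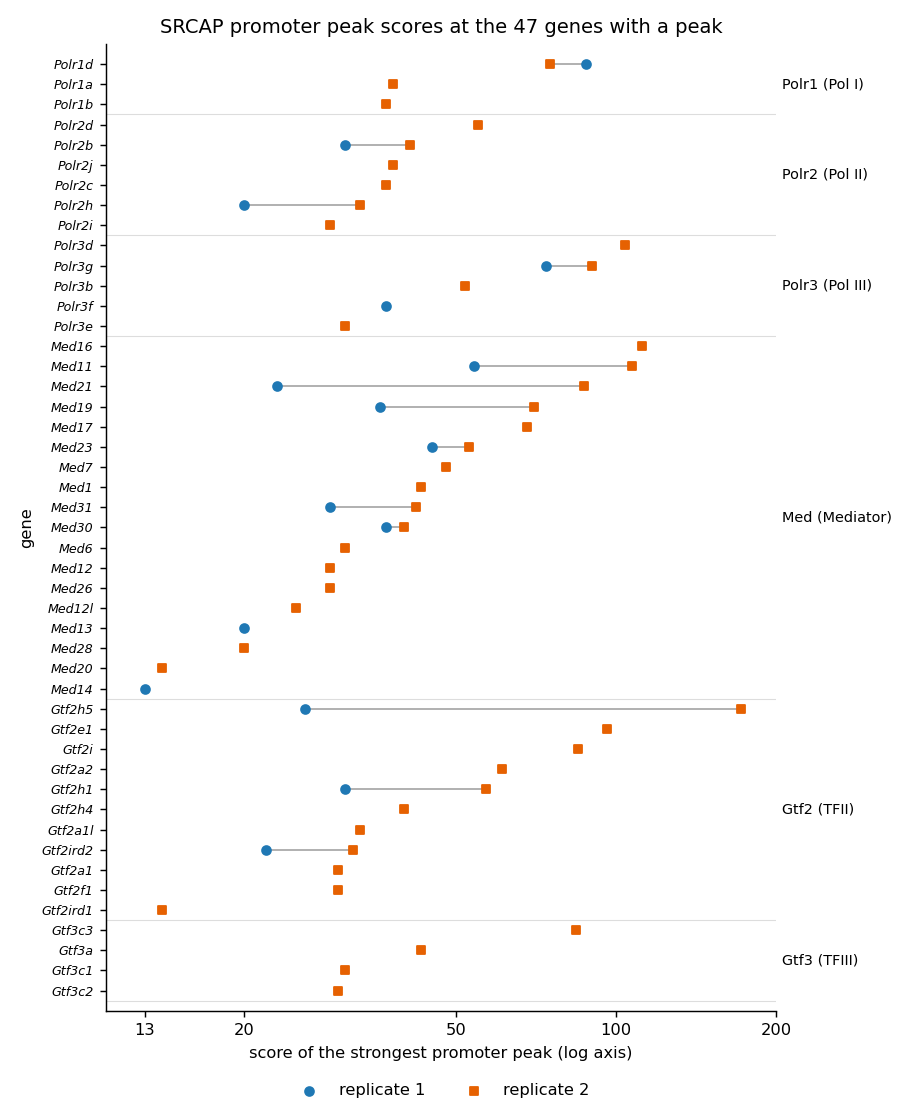
Score of the strongest promoter peak (horizontal log axis) of each of the 47 genes with a peak (vertical axis), grouped by family, with circles for replicate 1, squares for replicate 2 and a line joining the 2 where both had a peak. In 12 of the 13 joined genes the square lies to the right, Polr1d being the exception, and the highest score is that of Gtf2h5 in replicate 2.

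Over the 13 genes bound in both replicates, the replicate 2 score was higher in 12, and its ratio to the replicate 1 score had a median of 1.45 (0.852 for Polr1d to 6.62 for Gtf2h5). The peaks overlapped in 12 of the 13 genes, by 9 to 640 bp with a median of 320 bp, and 11 were wider in replicate 2. The median replicate 2 score was 57 in these 13 genes and 37 in the 31 bound in replicate 2 only. Over all protein-coding genes these medians were 59 and 37, a lower median without a counterpart in both sets of genes, although the scores overlapped (32 to 172 and 14 to 112 in the 81 genes).

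Med13, Med14 and Polr3f were bound in replicate 1 only. Polr3f, which encodes a Pol III initiation subunit, had a peak at chr2:144527390-144527655 with a score of 37, and the nearest replicate 2 peak was 14412 bp from a TSS of the gene. Med13, the link between the kinase module and the core of Mediator, had a peak at chr11:86358208-86358493 with a score of 20, centred at -748.5 bp from the TSS. The nearest replicate 2 peak was 21036 bp away. Med14 had a peak at chrX:12761986-12762287 with a score of 13, the lowest score in the lists, and the nearest replicate 2 peak was 40372 bp away. Their median score, 20, was lower than the 31 of the replicate 1 peaks with a counterpart. Over all protein-coding genes these medians were 29 and 39.

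**Figure D3:**
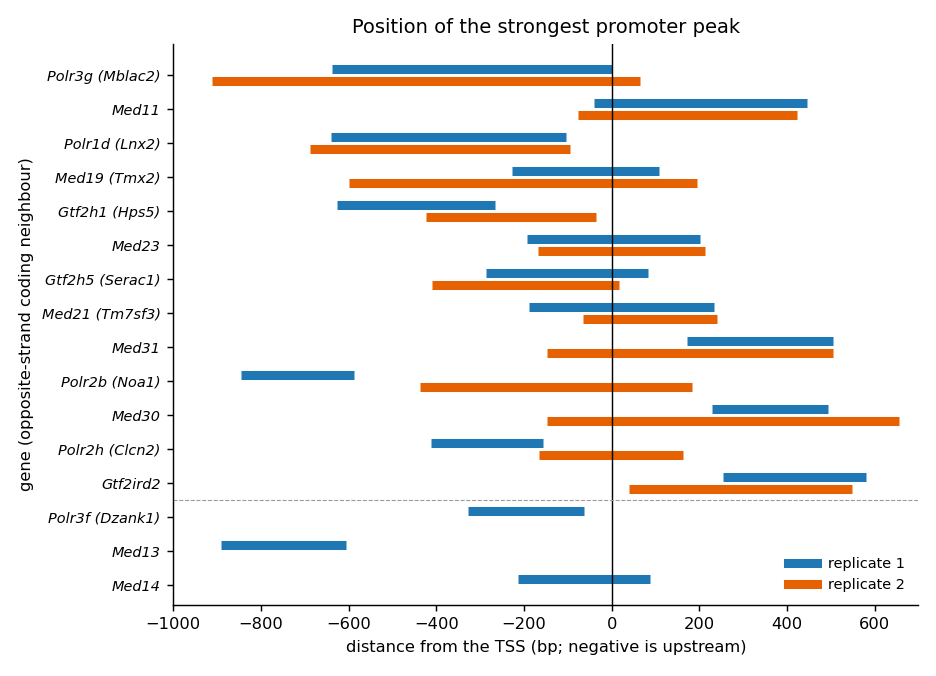
Extent of the strongest promoter peak in replicate 1 and in replicate 2 relative to 1 TSS of each gene (horizontal axis, bp) for the 13 genes bound in both replicates, by rank, and below the dashed line the 3 bound in replicate 1 only. The TSS drawn is the one nearest to the replicate 2 peak, or to the replicate 1 peak where there was no other, and the neighbouring gene on the opposite strand is given in brackets. The 2 bars overlap in every pair except that of Polr2b.

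The position of the peaks relative to the TSS was taken from their midpoints. In replicate 1 the median distance of the peak midpoint was 244 bp (136 bp for all bound protein-coding genes), 11 of 16 midpoints were upstream (68.8%, against 52.7%) and 7 peaks covered a TSS (43.8%, against 61.6%). In replicate 2 the median distance was 140 bp (136 bp), 22 of 44 midpoints were upstream (50%, against 52.4%) and 33 peaks covered a TSS (75%, against 66.8%). With 16 peaks in replicate 1, these differences were not tested.

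The median peak scores were below those of bound genes at large. The median score was 31 in replicate 1 (range 13 to 88), against 36 over all bound protein-coding genes, and 40.5 in replicate 2 (range 14 to 172), against 44. Scores of at least 50 were reached at 3 genes in replicate 1 (18.8%, against 26.8%) and at 17 in replicate 2 (38.6%, against 43%). The median widths were 336 bp, against 356 bp, and 424 bp, against 421 bp. In both replicates 0 of the peaks at these genes consisted for at least 50% of soft-masked repeat sequence.

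Many of these genes start close to another gene. A protein-coding TSS on the opposite strand lay within 1000 bp of any TSS of 25 of the 81 genes (30.9%), against 12.3% of all protein-coding genes. Among the 13 genes bound in both replicates there were 8 (61.5%, against 25.1% of all genes bound in both), among the 31 bound in replicate 2 only 6 (19.4%, against 19.9%), and among the 34 unbound 10 (29.4%, against 7.7%). The 8 were Gtf2h1 with Hps5 (39 bp apart), Gtf2h5 with Serac1 (45 bp), Polr2b with Noa1 (63 bp), Polr2h with Clcn2 (81 bp), Med21 with Tm7sf3 (223 bp), Med19 with Tmx2 (284 bp), Polr3g with Mblac2 (328 bp) and Polr1d with Lnx2 (464 bp). All 4 polymerase genes bound in both replicates were among them.

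Read the other way, 9 of the 25 genes with such a neighbour were bound in replicate 1 (36%), 14 in replicate 2 (56%) and 8 in both (32%). Of the 56 without, 7 (12.5%), 30 (53.6%) and 5 (8.93%) were bound. Over all protein-coding genes the shares were 29.4%, 54% and 24.5% with a neighbour and 13.8%, 27% and 10.3% without, so a higher share of genes bound in both replicates was found beside a neighbour in both sets. In replicate 2 the shares at these 81 genes were nearly equal with and without one.

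A peak between a pair of such genes cannot be assigned to either. In replicate 1, 9 of the 16 promoter peaks (56.2%, against 23.9% for all protein-coding genes) also overlapped the promoter window of another protein-coding gene, and in replicate 2, 15 of 44 (34.1%, against 22.1%). No peak was shared between a pair of the 81 genes. For these peaks the position of SRCAP at the polymerase, Mediator or general factor gene and at its neighbour cannot be told apart.

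**Figure D4:**
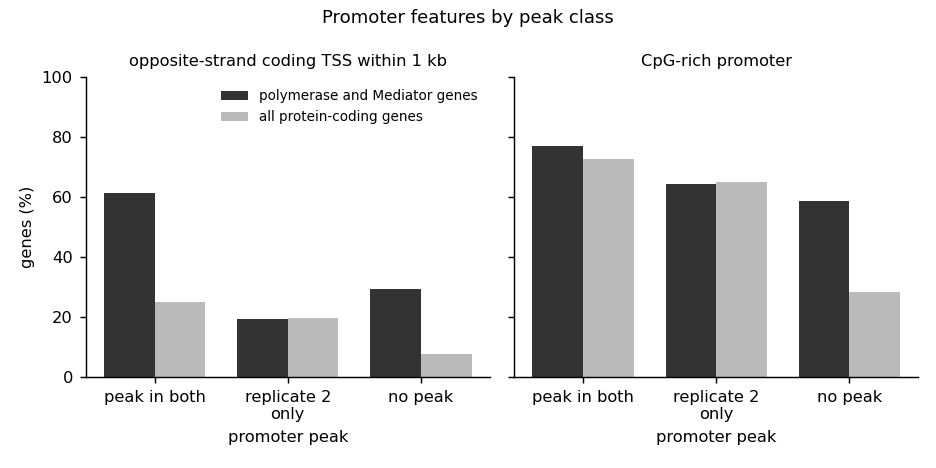
Percent of genes (vertical axes) with an opposite-strand protein-coding TSS within 1 kb (left) and with a CpG-rich promoter (right), for genes with a promoter peak in both replicates, in the second alone and in neither (horizontal axes). Dark bars are the polymerase and Mediator genes and grey bars all protein-coding genes, and the 3 genes bound in replicate 1 only are left out. The dark bar for neighbours is highest, at 61.5%, for genes bound in both replicates, and the dark bars for CpG-rich promoters run from 58.8% to 76.9%.

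The share of CpG-rich promoters was 76.9% in the genes bound in both replicates, 64.5% in those bound in replicate 2 only and 58.8% in the unbound genes, against 72.7%, 65% and 28.4% over all protein-coding genes. The unbound polymerase and Mediator genes were thus more often CpG-rich than unbound genes at large. Unbound CpG-rich genes included Polr2a, Gtf2b, Polr1c, Med13l and Gtf3c4. Over all protein-coding genes the share bound in replicate 2 was 13.6% with 1 annotated TSS, 28.2% with 2 to 5 and 48% with more, while among the 81 genes it was 33.3%, 57.5% and 54.3%. In replicate 1 these shares were 6.62%, 15% and 24.4% over all protein-coding genes and 0%, 27.5% and 14.3% among the 81 genes. With more than 5 TSSs the 81 genes were thus above in replicate 2 and below in replicate 1. The 81 genes had a median of 5 TSSs against 3 for all protein-coding genes, which widened the window searched to a median of 3792 bp against 3002 bp. With 1 TSS a gene, the annotated 5′ end, the ratio to all protein-coding genes was 1.45 in replicate 1 and 2.01 in replicate 2.

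None of the 34 unbound genes had a peak within 2 kb of a TSS. Much of this follows from the definition, which leaves no peak from 1000 bp upstream to 500 bp downstream. The nearest peak lay at a median of 78053 bp in replicate 1 (shortest 5305 bp, Polr2k) and 35604 bp in replicate 2 (shortest 3006 bp, Polr3gl), and it was more than 50 kb away for 22 and 12 genes. These distances were not taken for unbound protein-coding genes at large, and replicate 2 has the longer peak list. Polr1e, a Pol I subunit gene, had its nearest peak at 5816 bp (score 142) and 5858 bp (score 136), in both replicates. The other unbound genes include Gtf2b, Gtf2e2, Gtf2f2, Gtf2h2, Gtf2h3, Gtf3c4, Gtf3c5, Gtf3c6, Med4, Med8, Med9, Med10, Med13l, Med15, Med18, Med22, Med24, Med25, Med27, Med29, Polr1c, Polr2a, Polr2e, Polr2f, Polr2g, Polr2l, Polr2m, Polr3a, Polr3c and Polr3k. The absence of a call means that no peak passed the caller's threshold at a depth that is unknown here, not that SRCAP was absent.

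In the RefSeq promoters, 300 bp from 250 bases before to 50 after the start, 79 entries matched 70 of the 81 genes and were compared with all 32851 entries for short motifs on either strand. The ETS factor motif CCGGAAG was in 26 of the 79 (32.9%, against 8.86% of all), and the GC box GGGCGG of SP factors in 47 (59.5%, against 35.7%). The YY1 motif AAGATGGCG was in 4 (5.06%, against 1.4%) and the NRF1 motif GCGCATGCG in 6 (7.59%, against 1.75%). The NF-Y motif CCAAT was in 30.4% (against 37.4%) and the TATA box TATAAA in 10.1% (against 13.6%). The ETS and SP letters were thus more frequent than in promoters at large, which are less often CpG-rich, and the counts for YY1 and NRF1 were small.

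Few entries were available to compare bound with unbound genes. The ETS letters were in 3 (23.1%) of the 13 promoter entries of genes bound in both replicates and in 11 (34.4%) of the 32 entries of unbound genes. GGGCGG was in 61.5% and 56.2% and CCAAT in 15.4% and 25%. Of the promoters printed above, Med19 held CCAAT and CCGGAAG, Polr3g CCGGAAG and GGGCGG, Med21 CCAAT and GGGCGG, Polr2a GGGCGG and TATAAA, and Med11 none of the 6 motifs. A match is a description of the letters only.

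Partners of these complexes whose genes carry other symbols were examined as a list of 63 genes. In replicate 1, 16 were bound (25.4%), in replicate 2 25 (39.7%), in both 10 (15.9%) and in neither 32. The first share lay between those of all protein-coding genes (15.7%) and of CpG-rich genes (26.2%), as did the second (30.4% and 49.7%) and the third (12.0% and 21.1%). Those bound in both, with their scores in replicates 1 and 2, were the TFIIIB gene Brf1 (46 and 68), the SNAPc gene Snapc5 (44 and 111), the Pol III repressor Maf1 (64 and 32), the TFIID genes Taf3 (52 and 65) and Taf8 (31 and 74), the kinase module cyclin Ccnc (27 and 26), the elongation factor Ell (18 and 35), the Pol II tail phosphatase Ctdp1 (46 and 66) and the mitochondrial transcription factors Tfam (43 and 85) and Tfb2m (113 and 110).

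The genes of TFIID, the factor that recognises core promoters, were listed with the TBP-like gene Tbpl1 (replicate 2 only, score 45). They had 2 of 19 bound in replicate 1 (10.5%) and 6 in replicate 2 (31.6%), and Tbp, the TATA-binding subunit, had no peak. Other Pol I and Pol III genes had 7 of 19 bound in each replicate (36.8%) and 3 in both (15.8%). Pausing and elongation factors had 3 and 6 of 14 (21.4% and 42.9%), and 2 in both (14.3%). The Wilson intervals of these groups held the shares of CpG-rich genes (26.2%, 49.7% and 21.1%). They also held those of all protein-coding genes (15.7%, 30.4% and 12.0%), except for the Pol I and Pol III genes in replicate 1 (19.1 to 59%). Of the TFIIH kinase genes, Cdk7 (score 49) and Mnat1 (score 31) were bound in replicate 2 and Ccnh (score 57) in replicate 1. In the Mediator kinase module, Cdk19 was bound in replicate 2 (score 113) and its paralog Cdk8 in neither. None of these complexes had all of its listed genes bound in both replicates. With 12.0% of all protein-coding genes bound in both, a full set was unlikely for any list.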

How the data were processed

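CUT&Tag reads of 2 samples were mapped to mm10 with STAR and filtered with Picard, and the authors called peaks in each sample with MACS2, per the labels. The study's methods describe downsampling to equal Drosophila reads, the MACS2 settings -f BAMPE -g mm and removal of blacklisted regions under 1 heading for ChIP-seq and CUT&Tag, and which steps applied to these lists is not certain. The deposited lists give positions and a score, whole numbers from 13 upwards read as 10 times −log10 q, with no depth, fold or summit. Depth is therefore unknown, and a longer list may come from a deeper library.

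Promoter windows were built from all transcripts of protein-coding genes, without 13 mitochondrial genes, in Python 3.11.15 with pandas 2.3.3, and intervals with scipy 1.17.1. The count was tested on simulated peaks, where 200 of 200 planted genes were found. The peak of a gene is its highest-scoring one. CpG-rich genes and opposite-strand neighbours were defined over all TSSs of a gene, whether bound or not. Alternative windows, TSS sets, score minimums and list lengths were tried.

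Genes are named in their binding class, except for an item that is not reported here. Peak values are given for the 10 with the best poorer rank, the best of each family and those bound in replicate 1 only, and Polr2a, Med1, Med12 and Gtf2b are described whatever their class. The genes, lists and comparisons were chosen with earlier results of these data known, and the split by CpG-rich promoters after these counts were seen. Promoter sequences are from RefSeq (GRCm38.p6).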

Additional observations from a re-analysis of the deposited data

How the results depend on the processing

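The main limits are the 2 replicates of unequal list length and the unknown depth. Of 129 alternative values for 13 results under 12 settings, 98 stayed within the main value's counting interval, the spread between replicates or 1.5 times the main count, and 31 moved. Some of the 98 could not move. Equal list lengths leave replicate 1 unchanged, and either replicate alone always lies within the SD of the 2. Leaving out 1 replicate put the mean percent of the 81 genes bound at 19.8 to 54.3. Where a TSS had to lie inside the peak, 8.64% were bound in replicate 1, 40.7% in replicate 2 and 7.41% in both, with 0 Polr1, 0 Polr2 and 1 Gtf2 gene bound in both. With a score of at least 50, which left 1275 and 3879 peaks, the shares were 3.7%, 21% and 3.7% (mean 12.3%), with 0 Polr2, 1 Med and 0 Gtf2 genes in both. With replicate 2 cut to its 6158 best peaks, 34.6% were bound in it, and 1 Polr2 gene was bound in both.

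Over all protein-coding genes, the percent bound in replicate 1 was 9.73 where the peak had to contain a TSS, 15.1 with TSSs of coding transcripts, 13.6 with 1 TSS a gene and 4.21 at the higher score. In replicate 2 these were 20.6, 29.3, 26.4 and 13.1, and 31 with 1000 bp on either side, 29.7 with 500 bp, 29.5 by peak midpoint and 19.2 at equal list length. In both replicates they were 6.97 with a TSS inside the peak, 10.4 with 1 TSS a gene, 2.99 at the higher score and 9.69 at equal length. No paired analysis was possible because both samples belong to the same group.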
